A study of Danio rerio with 14 samples.

Results

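The genes described here lie at the start of zebrafish chromosome 3. They are the features that begin before position 5500000 of that chromosome (build GRCz11), the one that carries vmo1a, and that reached a mean of at least 0.5 CPM (counts per gene scaled to the library total) over all libraries. Of 234 features in the region 64 met this minimum, out of 39289 features in the whole table. The region was chosen by measured values of these libraries, for the number of its genes that differed between all 3 transgenic lines and non-transgenic fish, so every difference from non-transgenic fish given below is a description and not a test. RNA came from dissected ventricles of adult fish, with up to 7 ventricles pooled per library. TMEM43-WT (n = 4), TMEM43-p.P111L (n = 3) and TMEM43-p.S358L (n = 4) carry human TMEM43, as the wild-type protein or with the named amino acid change, fused to eGFP and driven in cardiomyocytes by the myl7 promoter. NTG (n = 3) are non-transgenic controls, and all 4 groups are of the Tüpfel long fin strain by the labels (TL1). The constructs were inserted at random places by Tol2 transposition, each line descends from its own founders, whose number is not given in the sources used here, and fish were progeny of an F2 in-cross. By the labels 1 of 4 TMEM43-WT, 1 of 3 TMEM43-p.P111L, 3 of 4 TMEM43-p.S358L and 2 of 3 NTG libraries come from fish of 5 months, and the other 7 of 14 from fish of 18 to 21 months. With NTG as the one non-transgenic stock, an effect of the transgene and a difference in genetic background between the lines and NTG cannot be told apart. The values are reads per gene and hold no sequence, so whether the 3 lines share a stretch of chromosome that NTG lack was not tested.

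Genes that lie side by side on a chromosome tend to be inherited together, but they need not share a function. The members mix housekeeping genes, such as RNA polymerase subunits and a subunit of mitochondrial complex I, with immune gene families. The immune families are major histocompatibility complex (MHC) class I genes of the fish-specific Z lineage, which encode surface molecules of the antigen-presenting kind, diverse immunoglobulin domain-containing proteins (DICPs), a family of fish immune-type receptors, and finTRIMs, a fish branch of the tripartite motif family. Such families are known for many near-identical copies and for gene contents that differ between individual fish. vmo1a is the homolog of a protein of the outer vitelline membrane of the hen's egg, and its role in the fish heart is not described in the labels.

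Depth was similar across libraries, with 20621593 to 32418274 reads assigned to genes. The libraries expressed the ventricular markers myl7, at 10343.5 to 18939 CPM, and vmhc, at 697 to 1449.8 CPM, while the fast skeletal muscle genes mylpfa, tnnt3a and myhz2 stayed at or below 0.953 CPM. The whole list of 9 fast skeletal muscle genes summed to 3207 to 6659 CPM, nearly all of it from the creatine kinase genes ckma, at 3129.5 to 6570.6 CPM, and ckmb, at 35.4 to 115 CPM in the lines against 287 to 1213 CPM in NTG. Endogenous tmem43 ranged over 5.91 to 18.7 CPM, and the human transgene is not among the zebrafish features. TMEM43-WT replicate 1 and TMEM43-p.S358L replicate 3 stood apart by their scaling factors (TMM), which were 0.824 and 0.872 against a highest value of 1.137.

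All 64 members passed the low-count filter. A gene was called where the adjusted p of edgeR's quasi-likelihood test was under 0.05 and the log2 fold change at least 0.05 in size, with adjustment over all 17437 tested genes. In TMEM43-WT against NTG 25 of 64 members were called, 14 higher and 11 lower, where 8.34% of all tested genes were called, 4.09% higher and 4.24% lower. In TMEM43-p.P111L the number was 15, with 11 higher and 4 lower, beside 7.59% of all genes, 3.34% higher and 4.25% lower. In TMEM43-p.S358L it was 16, with 9 higher and 7 lower, beside 6.15% of all genes, 2.68% higher and 3.48% lower. For the mean of the 3 lines against NTG it was 22, with 13 higher and 9 lower, beside 12.8% of all genes, 4.99% higher and 7.81% lower. The 3 comparisons share the same NTG libraries. Nothing is read from these shares, since the region was chosen for them. By member, 9 were called higher in all 3 lines and 4 lower in all 3, beside 2.31% of all tested genes called in all 3 lines in 1 direction. No member was called in opposite directions, and 39 were called in no line. The 3 NTG libraries did not overlap the 11 transgenic ones in 13 members, 7 higher and 6 lower in the lines, against 7.44% of all tested genes, 3.31% higher and 4.13% lower. As the minimum of 0.5 CPM is set on the mean over all libraries, a gene near 0 in NTG or in the lines is a member only through the group in which it is high.

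**Figure D1:**
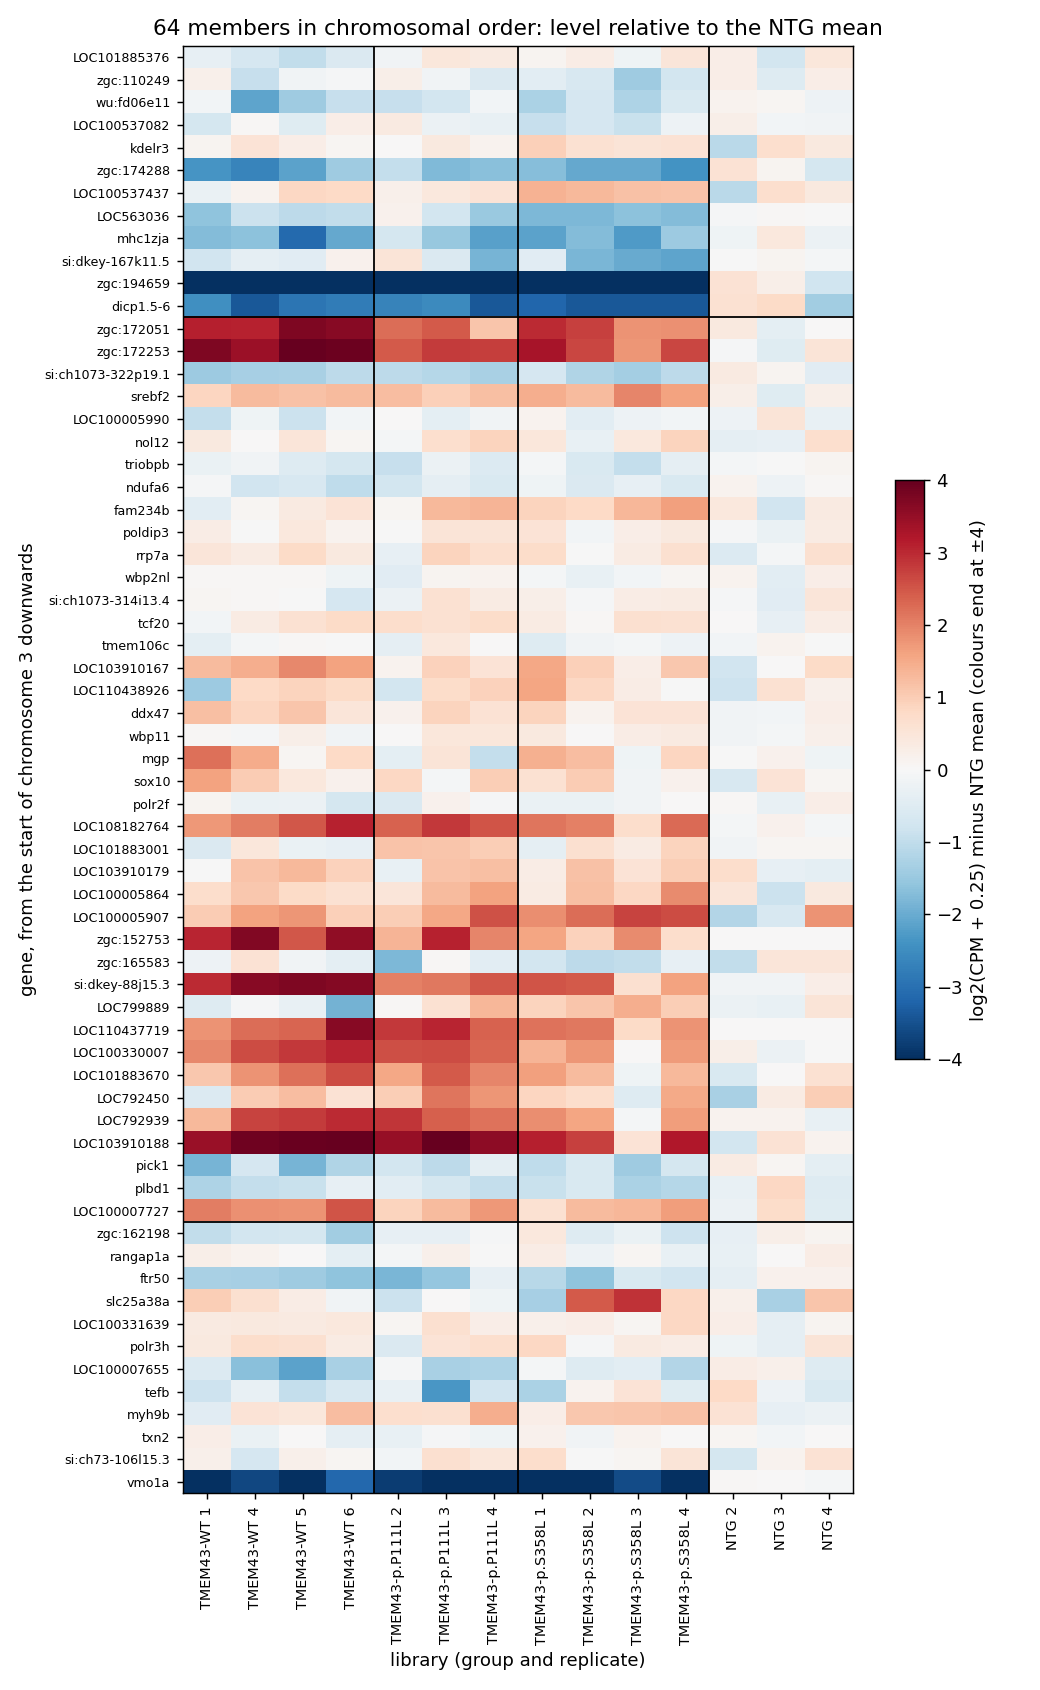
Each row is 1 of the 64 members in chromosomal order and each column 1 of 14 libraries; colours give log2(CPM + 0.25) minus the mean of the 3 NTG libraries, ending at ±4. Horizontal lines part 3 runs of members of 12, 40 and 12 genes: dark blue rows (zgc:194659, dicp1.5-6, vmo1a) stand in the first and last runs and most dark red rows in the middle one.

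Along the chromosome the members fall into 3 runs, divided where more than 400 kb separate one start from the next. These runs were drawn after the values were seen. The first run holds 12 members from LOC101885376 to dicp1.5-6, at positions 5503 to 585671. The middle run holds 40 from zgc:172051 to LOC100007727, at 1004987 to 3734043, and the last 12 from zgc:162198 to vmo1a, at 4458378 to 5413019. Calls by run are given as a description, since they rest on the comparisons that chose the region, and nothing is read from their directions. Some called members, such as zgc:194659 and dicp1.5-6 in the first run and zgc:152753 and LOC110437719 in the middle one, are near 0 on 1 side. They are members only through the side on which they are high. In the first, 5 members were called lower in TMEM43-WT, 2 in TMEM43-p.P111L and 5 in TMEM43-p.S358L, and none higher. In the middle run 14, 11 and 9 members were called higher in these lines, and 2, 1 and 1 lower. In the last run none was called higher and 4, 1 and 1 were called lower. Over all tested genes 4.09%, 3.34% and 2.68% were called higher and 4.24%, 4.25% and 3.48% lower in the same order of lines. The median log2 fold change of the mean of the 3 lines against NTG was -0.86 in the first run, 0.70 in the middle one and -0.03 in the last, against -0.01 over all tested genes.

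The first run carries the immune genes with the lowest values in the lines. mhc1zja, an MHC class I Z lineage gene at 376463 to 402940, measured 0.625, 0.704, 0.0921 and 0.461 CPM in TMEM43-WT, 1.55, 0.787 and 0.404 CPM in TMEM43-p.P111L and 0.412, 0.633, 0.359 and 0.818 CPM in TMEM43-p.S358L, against 2.34, 3.68 and 2.26 CPM in NTG. All 11 transgenic libraries lay below the lowest NTG library. The log2 fold change of the mean of the lines was -2.15 (SE 0.428), at a level of few reads. dicp1.5-6, a DICP gene at 576519 to 585671 that was named after its values were seen, held 18.02 reads in the 11 transgenic libraries together, against 189.63 reads in the 3 NTG libraries. Its highest transgenic library had 0.227 CPM, against 3.76, 4.19 and 0.754 CPM in NTG.

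zgc:194659, a non-coding RNA gene at 472181 to 474964, was the extreme case of the region. It had 0 reads in all 4 TMEM43-WT and all 4 TMEM43-p.S358L libraries and 7 reads in TMEM43-p.P111L, all of them in replicate 2, against 1220 reads in NTG, or 25.5, 20.2 and 9.63 CPM. It is 1 of only 5 members whose values are whole numbers in every library, so none of its reads was divided between features. A fold change against groups at 0 reads has no fixed size and is not given. zgc:174288, also named after its values were seen, followed the same order at a lower level, with 0.188 to 0.755 CPM in TMEM43-WT, 0.541 to 1.15 CPM in TMEM43-p.P111L and 0.273 to 0.577 CPM in TMEM43-p.S358L, against 3.80, 2.7 and 1.42 CPM in NTG.

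LOC563036, a protein-coding gene at 345976 to 367536, showed a graded pattern. It measured 5.40, 9.30, 8.15 and 8.64 CPM in TMEM43-WT, 19.4, 10.3 and 6.0 CPM in TMEM43-p.P111L and 4.78, 4.73, 5.38 and 4.95 CPM in TMEM43-p.S358L, against 16.5, 17.9 and 17.1 CPM in NTG. TMEM43-p.P111L replicate 2 lay above every NTG library and the other 10 transgenic libraries lay below them. The gene was called lower in TMEM43-WT, with a log2 fold change of -1.12, and in TMEM43-p.S358L, with -1.79, but not in TMEM43-p.P111L, with -0.53. Beyond mhc1zja, si:dkey-167k11.5 measured 2.45 to 4.95 CPM in TMEM43-WT, 6.35, 2.85 and 1.04 CPM in TMEM43-p.P111L and 3.13, 1.04, 0.897 and 0.818 CPM in TMEM43-p.S358L, against 4.31, 4.70 and 4.14 CPM in NTG. It was called in no line. wu:fd06e11, at 40211 to 45995, had a log2 fold change of -0.95 for the mean of the lines and was not called either.

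The other members of the first run were called in no line against NTG. LOC100537437, listed as protein-coding, measured 1.75 to 2.14 CPM in TMEM43-p.S358L, above all other libraries, against 0.512 to 1.38 CPM in TMEM43-WT, 0.794 to 1.1 CPM in TMEM43-p.P111L and 0.183 to 1.21 CPM in NTG. kdelr3, a receptor that returns proteins from the Golgi to the endoplasmic reticulum, averaged 10.4 ± 1.61 CPM in TMEM43-WT, 9.85 ± 1.31 CPM in TMEM43-p.P111L and 13.9 ± 1.99 CPM in TMEM43-p.S358L, against 9.79 ± 5.22 CPM in NTG (SD, n = 4, 3, 4 and 3). As several members belong to immune families, the 6 leukocyte markers (ptprc, mpeg1.1, mpx, lyz, coro1a and cd74a) were summed. The sums were 336 to 559 CPM in TMEM43-WT, 208 to 599.6 CPM in TMEM43-p.P111L and 276 to 369 CPM in TMEM43-p.S358L, against 260.03 to 278 CPM in NTG. Most of each sum is cd74a, at 174 to 532 CPM in the lines against 238 to 243 CPM in NTG. Without cd74a the sums were 39.4 to 72.5 CPM in TMEM43-WT, 34.3 to 67.9 CPM in TMEM43-p.P111L and 37.4 to 43.2 CPM in TMEM43-p.S358L. NTG had 22.3 to 39.2 CPM. Of the list only ptprc did not overlap, at 9.72 to 20.8 CPM in the lines against 5.31 to 7.79 CPM in NTG. The part of leukocytes in the values of these members was not tested. In pooled tissue, a change in the number of cells of a type and a change in RNA per cell cannot be told apart.

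The middle run opens with 2 neighbouring genes that were called higher in all 3 lines. zgc:172051, at 1004987 to 1012777, measured 2.62, 2.54, 4.19 and 3.86 CPM in TMEM43-WT, 1.31, 1.57 and 0.462 CPM in TMEM43-p.P111L and 2.35, 1.94, 0.897 and 0.935 CPM in TMEM43-p.S358L, against 0.183, 0 and 0.0837 CPM in NTG. zgc:172253, at 1030455 to 1036549, measured 4.44, 3.52, 7.23 and 5.03 CPM in TMEM43-WT, 1.67, 2.16 and 2.11 CPM in TMEM43-p.P111L and 3.17, 1.97, 0.942 and 1.99 CPM in TMEM43-p.S358L, against 0.0916, 0 and 0.251 CPM in NTG. In both genes every transgenic library was above every NTG library, and each TMEM43-WT library was above each TMEM43-p.P111L library.

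Further along the run, 2 members had no read at all in NTG. zgc:152753, at 1934495 to 1938588, measured 1.82, 3.0, 1.15 and 2.69 CPM in TMEM43-WT, 0.397, 1.87 and 0.722 CPM in TMEM43-p.P111L and 0.494, 0.223, 0.673 and 0.156 CPM in TMEM43-p.S358L. LOC110437719, a pseudogene at 2327226 to 2331392, measured 0.625, 0.939, 1.01 and 2.85 CPM in TMEM43-WT, 1.51, 1.82 and 1.04 CPM in TMEM43-p.P111L and 0.865, 0.819, 0.179 and 0.623 CPM in TMEM43-p.S358L. A count of 0 over the NTG group allows up to 3 reads, or 0.0446 CPM. Against that limit the mean of the 11 transgenic libraries was at least 26.9-fold higher for zgc:152753 and at least 25-fold higher for LOC110437719, for counting error only. Both genes, like LOC108182764, were named after their values were seen. LOC108182764, at 1599072 to 1626578, had 281.57 reads in the 11 transgenic libraries together, against 0.93 reads in NTG, the fraction being a divided read.

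2 more members with clone names belong to the same pattern. si:dkey-88j15.3, at 2009861 to 2033119, measured 1.93, 3.19, 3.41 and 3.27 CPM in TMEM43-WT, 0.873, 0.935 and 1.30 CPM in TMEM43-p.P111L and 1.32, 1.27, 0.179 and 0.584 CPM in TMEM43-p.S358L, against 0, 0 and 0.0837 CPM in NTG. LOC103910188, at 3289423 to 3304463, measured 4.26, 5.87, 6.17 and 7.85 CPM in TMEM43-WT, 4.41, 10.4 and 4.73 CPM in TMEM43-p.P111L and 3.30, 2.53, 0.359 and 3.54 CPM in TMEM43-p.S358L, against 0, 0.372 and 0.209 CPM in NTG. Here TMEM43-p.S358L replicate 3 lay within the NTG range, and the other 10 transgenic libraries were above it. Lower in the ranking, LOC100005907 had a log2 fold change of 1.35 for the mean of the lines, LOC100005864 1.13 and LOC103910167, a non-coding RNA gene, 1.07. Of these LOC103910167 was called in TMEM43-WT (log2 fold change 1.65) and the other genes in no line.

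srebf2 encodes a transcription factor that drives the genes of cholesterol synthesis and uptake. Among members with a gene symbol it was the only one called higher in all 3 lines. It lies at 1107102 to 1130892 and measured 35.3, 46.3, 43.8 and 46.2 CPM in TMEM43-WT, 45.9, 37.4 and 44.6 CPM in TMEM43-p.P111L and 53.7, 46.6, 75.0 and 59.3 CPM in TMEM43-p.S358L, against 22.7, 13.7 and 22.9 CPM in NTG. The NTG libraries did not overlap the transgenic ones, and the log2 fold change was 1.12 in TMEM43-WT, 1.11 in TMEM43-p.P111L and 1.57 in TMEM43-p.S358L. The gene just before it went the other way. The non-coding RNA gene si:ch1073-322p19.1, on the same strand, ends at 1106317, 784 bases before the start of srebf2. This non-coding gene measured 7.79, 8.40, 8.66 and 10.3 CPM in TMEM43-WT, 10.4, 9.54 and 8.69 CPM in TMEM43-p.P111L and 13.3, 9.16, 8.30 and 10.4 CPM in TMEM43-p.S358L, against 27.4, 23.1 and 15.7 CPM in NTG. Its log2 fold changes were -1.33, -1.21 and -1.10 in the same order of lines, again with no overlap. No neighbouring members overlap in their coordinates.

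**Figure D2:**
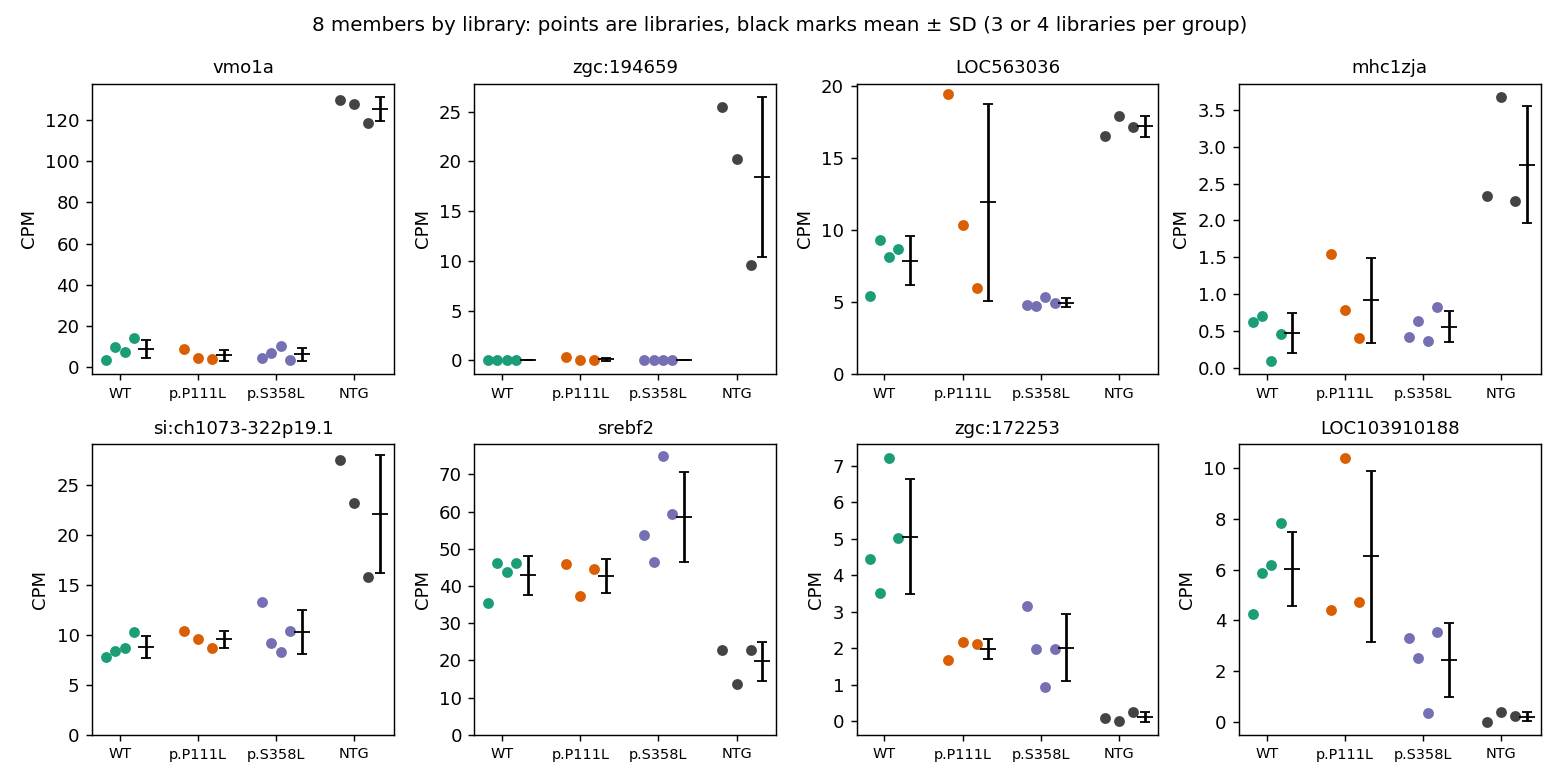
CPM of 8 members (linear axes, each with its own range) in the 4 groups, where WT, p.P111L and p.S358L stand for the TMEM43 lines; points are libraries and black marks the mean ± SD of 3 or 4 libraries. For vmo1a the NTG points lie at 118 to 129.6 CPM and all transgenic points at 13.9 CPM or below, while srebf2, zgc:172253 and LOC103910188 run the other way.

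Most of the housekeeping genes around srebf2 were not called. Of the 17 members of the middle run with a gene symbol 3 were called in at least 1 line, and of its 23 members with clone or contig names 13 were. Among all tested genes 14.0% were called in at least 1 line, being 12.9% of those with a gene symbol and 17.2% of those with clone or contig names. The members' counts rest on the comparisons that chose the region, and nothing is read from them. ndufa6, a subunit of mitochondrial complex I and among the 3 members with the highest mean CPM, measured 309, 186, 202 and 155 CPM in TMEM43-WT, 189, 249 and 208 CPM in TMEM43-p.P111L and 278, 212, 253 and 208 CPM in TMEM43-p.S358L, against 347, 277 and 331 CPM in NTG. TMEM43-WT replicate 1 and TMEM43-p.S358L replicate 1 reached the NTG range and the others lay below it; ndufa6 was not called. wbp2nl averaged 133 ± 9.60 CPM in TMEM43-WT, 129 ± 27.2 CPM in TMEM43-p.P111L and 125 ± 13.2 CPM in TMEM43-p.S358L, against 136 ± 32.5 CPM in NTG (SD, n = 4, 3, 4 and 3). polr2f, a subunit shared by the nuclear RNA polymerases, and wbp11, a splicing factor, likewise had overlapping groups.

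Among the symbols of the middle run, ddx47, a DEAD-box helicase of ribosomal RNA processing, was called higher in TMEM43-WT (log2 fold change 0.94), where it averaged 34.5 ± 7.40 CPM against 18.0 ± 2.97 CPM in NTG (SD, n = 4 and 3). It averaged 26.7 ± 6.66 CPM in TMEM43-p.P111L and 26.4 ± 5.58 CPM in TMEM43-p.S358L (SD, n = 3 and 4), without a call in these lines. For the mean of the lines it was called higher (log2 fold change 0.69). pick1, a PDZ-domain scaffold protein, was called lower in TMEM43-WT (log2 fold change -1.74), at 0.452 ± 0.293 CPM against 1.53 ± 0.420 CPM in NTG (SD, n = 4 and 3). It averaged 0.827 ± 0.255 CPM in TMEM43-p.P111L and 0.683 ± 0.220 CPM in TMEM43-p.S358L (SD, n = 3 and 4), without a call in these lines. For the mean of the lines it was called lower (log2 fold change -1.25). Both ddx47 and pick1 were named after their values were seen. fam234b averaged 4.35 ± 1.24 CPM in TMEM43-WT, 7.99 ± 3.38 CPM in TMEM43-p.P111L and 9.10 ± 2.57 CPM in TMEM43-p.S358L, against 4.09 ± 1.69 CPM in NTG (SD, n = 4, 3, 4 and 3), and was called in no line. zgc:165583 had a log2 fold change of -0.63 for the mean of the lines and no call.

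In the last run, vmo1a stood alone. It lies at 5403848 to 5413019 and measured 3.30, 9.72, 7.55 and 13.9 CPM in TMEM43-WT, 8.73, 4.48 and 3.81 CPM in TMEM43-p.P111L and 4.24, 6.63, 10.2 and 3.43 CPM in TMEM43-p.S358L, against 129.6, 127.7 and 118 CPM in NTG. Means were 8.61 ± 4.41, 5.67 ± 2.67 and 6.13 ± 3.05 CPM in the order above, against 125 ± 5.98 CPM in NTG (SD, n = 4, 3, 4 and 3). The log2 fold change of the mean of the lines was -4.23 (SE 0.321). Unlike zgc:194659, vmo1a kept 1799.75 reads in the 11 transgenic libraries together, against 8400.8 reads in NTG. NTG had the highest group mean. As the choice of the region used the values of every line, no agreement between the lines is read from their means or from the tests that follow. The tests between lines gave log2 differences of -0.50 (SE 0.404) for TMEM43-p.S358L minus TMEM43-WT, -0.61 (SE 0.441) for TMEM43-p.P111L minus TMEM43-WT and -0.11 (SE 0.439) for TMEM43-p.P111L minus TMEM43-p.S358L, with adjusted p of 0.686, 0.718 and 0.973 by edgeR's quasi-likelihood test. Among the libraries of 18 to 21 months alone, the vmo1a difference of TMEM43-p.P111L minus TMEM43-WT was -1.34 with an adjusted p of 0.0272. At 5 months, with 1 library of each line, it was 1.40 with an adjusted p of 0.529, and over all alternatives the difference ranged over -1.34 to 1.40 and the adjusted p over 0.0272 to 0.961. In the fit of all libraries vmo1a was not called for age (log2 difference of 18 to 21 months minus 5 months -0.25, SE 0.379, adjusted p = 0.848 by edgeR's quasi-likelihood test).

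The remaining members of the last run ranged from called lower in 1 line to level. ftr50, a finTRIM, measured 0.569, 0.563, 0.506 and 0.420 CPM in TMEM43-WT, 0.318, 0.443 and 1.36 CPM in TMEM43-p.P111L and 0.700, 0.409, 1.08 and 0.935 CPM in TMEM43-p.S358L, against 1.33, 2.05 and 2.05 CPM in NTG. Only TMEM43-p.P111L replicate 4 reached the NTG range. The gene was called lower in TMEM43-WT, as was zgc:162198, which RefSeq's annotation of GRCz12tu lists as zc3h7ba. LOC100331639, the member with the highest mean CPM, averaged 272 ± 5.88 CPM in TMEM43-WT, 266 ± 55.4 CPM in TMEM43-p.P111L and 271 ± 67.3 CPM in TMEM43-p.S358L, against 212 ± 45.2 CPM in NTG (SD, n = 4, 3, 4 and 3), and was not called.

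myh9b, which encodes a non-muscle myosin heavy chain, was among the higher values without a call. It measured 46.7, 92.1, 87.8 and 150.5 CPM in TMEM43-WT, 102, 98.3 and 172 CPM in TMEM43-p.P111L and 76.6, 134, 138 and 143 CPM in TMEM43-p.S358L, against 94.6, 50.3 and 53.6 CPM in NTG. The groups overlapped, and the log2 fold change of the mean of the lines was 0.77. tefb, a transcription factor of the PAR bZIP family tied to the circadian clock, had -0.72 and no call. rangap1a, the activator of the Ran GTPase of nuclear transport, averaged 37.7 ± 6.75 CPM in TMEM43-WT, 38.1 ± 4.41 CPM in TMEM43-p.P111L and 36.7 ± 7.32 CPM in TMEM43-p.S358L, against 37.5 ± 7.69 CPM in NTG (SD, n = 4, 3, 4 and 3), and txn2, mitochondrial thioredoxin, was as even. slc25a38a, a mitochondrial glycine carrier of heme synthesis and 1 of the 5 members with whole counts, varied within TMEM43-p.S358L from 0.0412 CPM in replicate 1 to 3.80, 5.20 and 1.05 CPM in the others, against 0.596, 0.0466 and 1.34 CPM in NTG.

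At the border of the region, si:ch73-106l15.3 inside it averaged 1.05 ± 0.327 CPM in TMEM43-WT, 1.42 ± 0.421 CPM in TMEM43-p.P111L and 1.40 ± 0.388 CPM in TMEM43-p.S358L, against 1.13 ± 0.563 CPM in NTG (SD, n = 4, 3, 4 and 3). The other nearest gene inside is vmo1a. Just outside, trim35-31, which starts at 5538453, averaged 0.886 ± 0.269, 0.613 ± 0.0713 and 1.02 ± 0.390 CPM in the lines in the same order, against 1.31 ± 0.124 CPM in NTG. ddx39ab, which starts at 5619056, averaged 125.9 ± 33.7, 127 ± 30.1 and 122 ± 20.4 CPM, against 83.6 ± 18.0 CPM in NTG. Their log2 fold changes for the mean of the lines were -0.67 and 0.58. Neither gene was called in any line against NTG, and nor was si:ch73-106l15.3, while vmo1a was called lower in all 3 lines. Further out, from 5.5 to 11 Mb, 5 of 63 tested genes were called in 1 direction in all 3 lines, beside 2.31% of all tested genes.

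Over the whole of chromosome 3, cut into 12 windows of 5.5 Mb, the first window held 98 tested genes, including 34 that were expressed below the minimum for members. In it 37.8% of tested genes were called in TMEM43-WT against NTG, 23.5% in TMEM43-p.P111L and 19.4% in TMEM43-p.S358L. The other 11 windows ranged over 3.06% to 16.4%, 4.08% to 17.8% and 5.10% to 14.3% in the same order. For the mean of the lines the first window had 34.7% and the others 8.16% to 26.0%. Genes whose NTG libraries did not overlap the lines made up 21.4% of the first window. In the others they made up 4.88% to 19.2%, the highest in window 8. Between lines the first window had 2.04% called for TMEM43-p.S358L minus TMEM43-WT, 1.02% for TMEM43-p.P111L minus TMEM43-WT and 0 for TMEM43-p.P111L minus TMEM43-p.S358L, where the highest of the other 11 windows had 2.33%, 2.63% and 5.81%. For TMEM43-p.S358L minus TMEM43-WT and for TMEM43-p.P111L minus TMEM43-WT 9 of the other 11 windows were below the first. For TMEM43-p.P111L minus TMEM43-p.S358L none was. These ranks rest on 2, 1 and 0 called genes in the first window, and the median of the other windows was 0 for each pair. Over all tested genes 1.62%, 0.826% and 1.04% were called in the same order. The values against NTG restate what chose the region.

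**Figure D3:**
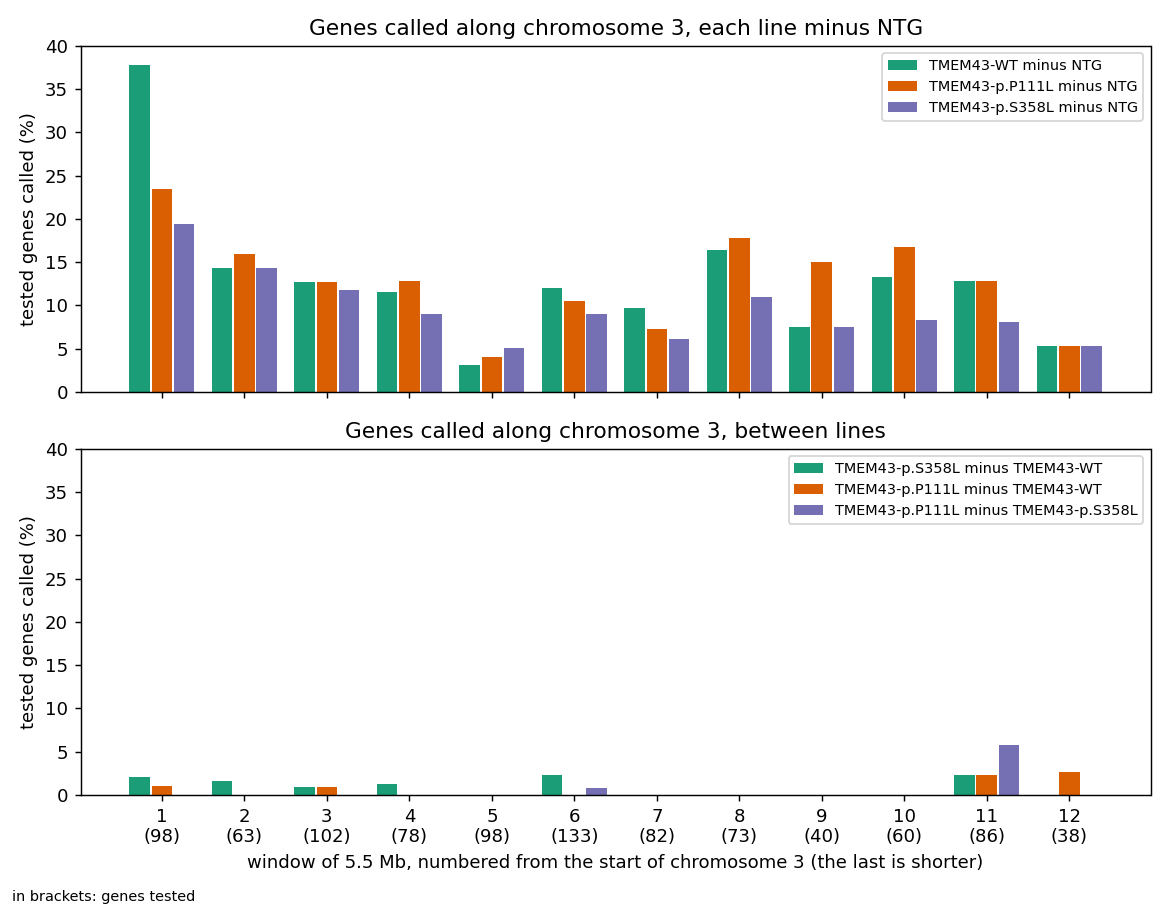
Percent of tested genes called in 12 windows of 5.5 Mb along chromosome 3 (genes tested in brackets), above for each line against NTG and below between lines, on the same linear axis from 0. The first window has the tallest bars above, at 37.8%, 23.5% and 19.4%, and stands at 2.04%, 1.02% and 0 below.

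The comparisons between lines were tested and were not themselves the measure that chose the region. The choice did use the values of every line, as it counted genes that differed from NTG in all of the lines. Such a choice can favour genes on which the lines agree. The numbers called between lines are thus not independent of the choice, and no agreement between lines is read from them. edgeR's quasi-likelihood test called 0 of 64 members for TMEM43-p.S358L minus TMEM43-WT (1.62% of all tested genes), 0 for TMEM43-p.P111L minus TMEM43-WT (0.826%) and 0 for TMEM43-p.P111L minus TMEM43-p.S358L (1.04%). At an unadjusted p under 0.05 the numbers were 16 of 64 members (beside 12.4% of all tested genes), 10 of 64 (beside 10.2%) and 8 of 64 (beside 9.57%). DESeq2 called 4 members in the first of these pairs (2.37% of all genes in its fit), namely LOC799889 higher and zgc:172253, zgc:152753 and si:dkey-88j15.3 lower in TMEM43-p.S358L. In the second (1.6%) it called zgc:172253 and mgp, both lower in TMEM43-p.P111L, and in the third (1.57%) LOC563036, higher in TMEM43-p.P111L than in TMEM43-p.S358L. The median absolute log2 difference of members was 0.474 for TMEM43-p.S358L minus TMEM43-WT (0.280 over all tested genes), 0.308 for TMEM43-p.P111L minus TMEM43-WT (0.284) and 0.285 for TMEM43-p.P111L minus TMEM43-p.S358L (0.269).

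The members with the smallest p between lines were named after their values were seen. zgc:152753 had a log2 difference of -2.49 (SE 0.598) in TMEM43-p.S358L minus TMEM43-WT with an adjusted p of 0.0536 by edgeR, just short of a call, and 0.00333 to 0.602 over the alternatives. The 2 groups did not overlap, at 0.156 to 0.673 CPM in TMEM43-p.S358L and 1.15 to 3.0 CPM in TMEM43-WT. Without TMEM43-WT its mean was 0.453 CPM, under the minimum of 0.5 CPM, so it is a member only through the line in which it is high. LOC563036 had a log2 difference of 1.26 (SE 0.302) in TMEM43-p.P111L minus TMEM43-p.S358L with an adjusted p of 0.0570, and 0.00979 to 0.786 over the alternatives. Its 3 TMEM43-p.P111L libraries, at 6.0 to 19.4 CPM, all lay above the 4 TMEM43-p.S358L libraries, at 4.73 to 5.38 CPM. LOC101883001 led TMEM43-p.P111L minus TMEM43-WT with a log2 difference of 1.72 (SE 0.535) and an adjusted p of 0.184 by edgeR. Its mean without TMEM43-p.P111L was 0.448 CPM, so it too is a member only through that line.

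mgp encodes matrix Gla protein, an inhibitor of calcification in vessel walls and cartilage. It measured 6.67, 12.5 and 4.45 CPM in TMEM43-p.P111L and 41.3, 25.3, 9.21 and 15.4 CPM in TMEM43-WT, with a log2 difference of -1.54 (SE 0.496) that edgeR did not call (adjusted p = 0.223). The smooth muscle and bulbus arteriosus markers (elnb, elna, acta2, tagln and myh11a) also summed lower, at 127 to 326 CPM in TMEM43-p.P111L and 582 to 978 CPM in TMEM43-WT. The other groups had the following values. In NTG mgp was at 7.79 to 10.0 CPM, near TMEM43-p.P111L, with a sum of 463 to 637 CPM. In TMEM43-p.S358L mgp was at 7.80 to 24.2 CPM with a sum of 423 to 822 CPM. acta2, at 31.7 to 116 CPM in TMEM43-p.P111L and 384 to 679 CPM in TMEM43-WT, and tagln, at 36.5 to 126 and 129 to 269.9 CPM in the same order, did not overlap between these lines. elna, elnb and myh11a did, myh11a being at 25.2 to 36.4 CPM in TMEM43-p.P111L and 17.1 to 43.0 CPM in TMEM43-WT. The part of smooth muscle in the mgp difference was not tested. LOC799889 had a log2 difference of 2.19 (SE 0.638) in TMEM43-p.S358L minus TMEM43-WT and an adjusted p of 0.109 by edgeR, at 1.48, 1.79, 2.29 and 1.6 CPM in TMEM43-p.S358L and 0.398, 0.657, 0.506 and 0 CPM in TMEM43-WT.

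Single libraries moved several members at once. For the 11 members of the middle run with clone or contig names that were called higher in the mean of the lines, the summed CPM was 19.4 to 35.7 in TMEM43-WT, 16.0 to 25.8 in TMEM43-p.P111L and 4.21 to 15.0 in TMEM43-p.S358L, against 0.504 to 1.0 in NTG. TMEM43-p.S358L replicate 3 gave the value of 4.21, where the other TMEM43-p.S358L libraries had 11.8 to 15.0. It was the lowest of the 11 transgenic libraries in 8 of these 11 members and within the NTG range in 4. zgc:152753 was an exception, at 0.673 CPM the highest of the TMEM43-p.S358L libraries. That library had 25576651 reads and the scaling factor of 0.872 given above, whose part in this was not tested. Each of the 11 members held divided reads, in 3 libraries for zgc:152753 and up to 13 for others such as zgc:172253. Members that share reads would not be separate instances, which was not tested. For the 5 members of the first run called lower in the mean of the lines, the summed CPM was 22.5 in TMEM43-p.P111L replicate 2 and 5.77 to 11.9 in the other 10 transgenic libraries, against 31.2 to 51.9 in NTG. That library was the highest transgenic one in 4 of the 5 members. It is also the only TMEM43-p.P111L library from fish of 5 months. The other transgenic libraries of 5 months had sums of 6.54 CPM in TMEM43-WT replicate 1 and 5.81, 5.77 and 6.14 CPM in TMEM43-p.S358L replicates 1, 2 and 3. The part of age in this sum was not tested. Without TMEM43-WT replicate 1 and TMEM43-p.S358L replicate 3, 21 members were called in TMEM43-WT, 15 in TMEM43-p.P111L and 16 in TMEM43-p.S358L against NTG. Of all 17314 genes tested in that fit 1164, 1419 and 566 were called in the same order. Non-overlap held in 17 members and was not counted over all tested genes without these libraries.

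**Figure D4:**
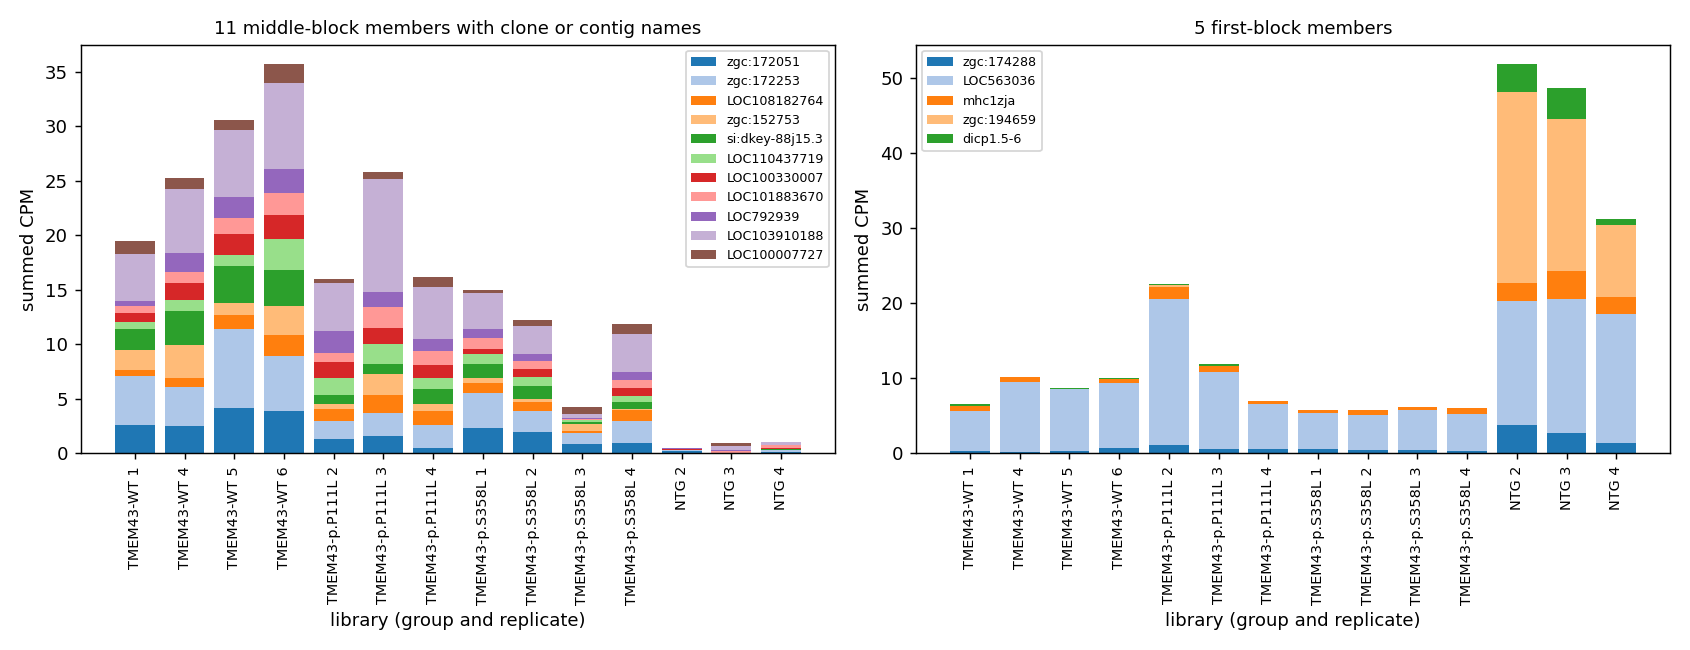
Stacked bars of summed CPM (linear axes from 0) per library for the 11 middle-run members with clone or contig names called higher (left) and the 5 first-run members called lower (right) in the mean of the 3 lines. On the left TMEM43-p.S358L replicate 3 stands at 4.21 CPM and the NTG libraries at 1.0 CPM or below; on the right TMEM43-p.P111L replicate 2 reaches 22.5 CPM among transgenic libraries.

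For age, which the choice of the region did not use, 18 to 21 months were compared with 5 months with genotype as a covariate. edgeR called 1 member, lower at 18 to 21 months, where 0.969% of all tested genes were called, 0.413% higher and 0.556% lower. It was LOC100007655, listed by RefSeq as tob2, a member of the antiproliferative BTG/TOB family, at 5034986 to 5044946. It ranged over 3.96 to 12.9 CPM with a mean of 7.57 CPM at 18 to 21 months and over 12.5 to 22.9 CPM with a mean of 16.9 CPM at 5 months (n = 7 each). Within each genotype all older libraries were lower. They had 5.63, 3.96 and 7.34 CPM against 12.5 CPM at 5 months in TMEM43-WT. In TMEM43-p.P111L they had 7.43 and 7.74 CPM against 17.9 CPM. In TMEM43-p.S358L the value was 8.02 CPM against 17.4, 12.7 and 13.8 CPM, and in NTG 12.9 CPM against 22.9 and 21.2 CPM.

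The log2 difference of LOC100007655 was -1.0 (SE 0.165, adjusted p = 0.0199 by edgeR's quasi-likelihood test), with -1.08 to -0.94 and adjusted p of 1.15e-05 to 0.626 over the alternatives. The call was lost without TMEM43-p.P111L replicate 2 (adjusted p = 0.0787), TMEM43-p.P111L replicate 4 (0.0567), TMEM43-p.S358L replicate 4 (0.101) or TMEM43-WT replicate 1 (0.0740), and without the 2 libraries with the lowest scaling factors (0.0981), while the difference kept its size. At an unadjusted p under 0.05, 13 of 64 members differed by age, beside 13.5% of all tested genes. DESeq2 called 4 of 64 (beside 2.05% of all genes in its fit), namely LOC100007655 lower and fam234b, LOC100005907 and LOC792450 higher at 18 to 21 months. Of all 64 members 43 had a positive difference, with a median of 0.22 against 0.00 over all tested genes. LOC100007655 was also 1 of the 4 members of the last run called lower in TMEM43-WT against NTG, where 3 of 4 TMEM43-WT libraries but 1 of 3 NTG libraries came from older fish. Age and genotype were thus unevenly mixed in that comparison, and with age as a covariate its log2 fold change was -1.0 in place of -1.37, still called lower.

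The genes whose pattern over the 14 libraries was most like that of vmo1a, by Pearson's r of log2 CPM, are given as a description, since all share the contrast with NTG. Among members r was highest for zgc:194659 (0.94), dicp1.5-6 (0.85), si:ch1073-322p19.1 (0.84), zgc:174288 (0.84) and LOC563036 (0.76). It was lowest for LOC108182764 (-0.86), zgc:172253 (-0.85), LOC110437719 (-0.82), LOC103910188 (-0.82) and srebf2 (-0.79). Like values occurred outside the region, where only genes with a gene symbol and a mean of at least 1 CPM were ranked. strbp, on chromosome 10, had r of 0.95 and averaged 1.61 ± 0.397 CPM in TMEM43-WT, 1.63 ± 0.487 CPM in TMEM43-p.P111L and 1.5 ± 0.182 CPM in TMEM43-p.S358L, against 8.22 ± 2.45 CPM in NTG (SD, n = 4, 3, 4 and 3). After it came rbms2b on chromosome 23, fam234a and acbd5a on 24 and nek6 on 21, all at 0.90. At the other end, fam219ab on chromosome 5, fastkd2 on 1, tcf21 on 23 and cpsf2 on 20 had r of -0.93 and psmd11a on chromosome 3 had -0.92.

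Beyond position, the members shared features that the rule did not use. Clone or contig names made up 36 of 64 members, or 56.2%, against 24.7% of all tested genes. Values that are not whole numbers, which arise where reads are divided between features or places, occurred in 59 members, or 92.2%, against 46.4% of all tested genes. Of the 28 members with such values in at most 5 libraries 10 were called in at least 1 line against NTG, and of the 36 with them in 6 or more libraries 15 were. Of all tested genes 1809 of 14135 and 631 of 3302 were called in these classes, and nothing is read from the members' counts, which rest on the comparisons that chose the region. Reads of members with near-identical copies can thus come in part from another copy, and their levels are uncertain to that extent. The median of the mean CPM was 2.81 over members, against 5.70 over tested genes, with a range of 0.504 to 258 CPM. In biotype, 59 members were protein-coding, 4 non-coding RNA genes and 1 a pseudogene.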

How the data were processed

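Libraries were made from total RNA of pooled ventricles with a stranded mRNA kit and read single-end. For trimming the authors used Cutadapt 2.5, for alignment STAR 2.7.2b with GRCz11 as the genome, and for counting per gene featureCounts 1.6.4. The deposited values are expected counts, as many end in fractions, with no scaling for depth or length. How reads on several places or strands were treated is not given in the sources used here. Rounded counts went into edgeR 4.0.16 under R 4.3.3 (TMM, filterByExpr by group, robust quasi-likelihood test, 1 factor of 4 groups over 14 libraries, Benjamini-Hochberg adjustment over 17437 genes), with thresholds as in the study's methods. DESeq2 1.42.0 served as an alternative. CPM are rounded counts scaled to the library total after TMM. Standard errors are the log2 fold change divided by the root of F. Groups were taken from the labels. Ages were also taken from the labels, of which 7 give more than the 5 months stated in the paper. Nothing in the labels says how pools were separated, so p-values measure the spread between pools.

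Genes named are vmo1a, the 10 highest and 10 lowest log2 fold changes of the mean of the lines against NTG among members with a mean of at least 1 CPM, members called between lines or for age, the 3 with the highest mean, those at the border and those most like vmo1a. Other names were added after seeing values. Members, lists and tests were chosen with earlier results of these data known. The fit was also run on simulated counts with changes of known size. These changes were set only in genes with higher counts than many members have, so that run does not cover members of few reads. Gene IDs of 41 members were found in RefSeq's table for GRCz12tu, used for names only. The members held 1 finTRIM and 1 solute carrier by symbol, and none of the zinc finger, NLR or immune GTPase lists.

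Alternatives were DESeq2, other size factors (RLE), no filter or at least 1 CPM in 3 libraries, a log2 fold change of at least 1, a mean of at least 1 CPM for members, whole counts only, replicate number as a block, age as a covariate, each age alone and leaving out each library. A fit without TMEM43-WT replicate 1 and TMEM43-p.S358L replicate 3, whose TMM factors were the smallest, was added after seeing the data.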

Additional observations from a re-analysis of the deposited data

Results flagged for a closer look

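In groups of 4 libraries, single libraries far from the other 3 (gap over range above Dixon's critical value for 4) were found in 7 of 126 groups, where chance gives about 1 in 20. TMEM43-p.S358L replicate 1 was high for si:dkey-167k11.5, at 3.13 CPM where the others had 0.818 to 1.04 CPM. The same library held the only reads of dicp1.5-6 in its group, at 0.0412 CPM, or 0.67 of a read, where the others had 0. With 3 libraries at 0 any read in the fourth is set apart in this way by construction. That library was also low for myh9b, at 76.6 CPM where the others had 134 to 143 CPM. TMEM43-WT replicate 6 was low for wbp2nl, at 119 CPM where the others had 138 to 139 CPM, and for si:ch1073-314i13.4, at 20.9 CPM where the others had 33 to 35.1 CPM. TMEM43-WT replicate 1 was low for LOC110438926, at 0 CPM where the others had 0.923 to 1.01 CPM, and for si:dkey-88j15.3, at 1.93 CPM where the others had 3.19 to 3.41 CPM. It is the only TMEM43-WT library from fish of 5 months and has the lowest scaling factor. The part of either was not tested.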

How the results depend on the processing

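The number of members called against NTG depended on which genes and libraries entered. In TMEM43-WT (25 members) it was 14 with a mean of at least 1 CPM for membership, 1 with whole counts only, 2 with the replicate number as a block, 1 at 5 months alone, 12 at 18 to 21 months alone, and 16 to 24 when each library was left out, the lowest without NTG replicate 2 or NTG replicate 3. In TMEM43-p.P111L (15) it was 8 at the higher minimum, 1 with whole counts only, 0 at 5 months, 6 at 18 to 21 months and 14 to 17 without single libraries. In TMEM43-p.S358L (16) it was 10, 1, 5, 3 and 14 to 17 in the same order. For the mean of the lines (22) it was 11, 1, 3, 11 and 18 to 25. The higher minimum left 46 of the 64 members, so part of the fall there is a smaller set. With the replicate number as a block, 14 members were called in TMEM43-p.P111L, 14 in TMEM43-p.S358L and 15 for the mean of the lines. Replicate numbers 5 and 6 occur only in TMEM43-WT, so in that fit those libraries add nothing to its comparison with NTG. Number 4 is the only one that TMEM43-WT and NTG share. The only member called among the 5 with whole counts was zgc:194659. Counts over all tested genes fell too with whole counts only, with the block and at single ages. With whole counts only, 626 genes were called in TMEM43-p.P111L, 422 in TMEM43-p.S358L and 1010 for the mean of the lines. Without that limit the numbers were 1324, 1073 and 2232. In TMEM43-WT 1454 genes were called in all, against 589 with whole counts only, 26 with the block, 9 at 5 months and 396 at 18 to 21 months. At 1 age alone there are 1 to 3 libraries per group, so fewer calls follow in part from fewer libraries, a lone library being assumed to vary like the other groups.

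Between lines, TMEM43-p.S358L minus TMEM43-WT (0) gave 4 by DESeq2, 1 without a filter (zgc:152753), 1 with age as a covariate (fam234b) and 0 to 1 without single libraries, the 1 being zgc:152753 without NTG replicate 2, NTG replicate 3, TMEM43-p.P111L replicate 2 or TMEM43-p.P111L replicate 3. TMEM43-p.P111L minus TMEM43-WT (0) gave 2 by DESeq2, 1 at 18 to 21 months (vmo1a) and 0 to 0 without single libraries. TMEM43-p.P111L minus TMEM43-p.S358L (0) gave 1 by DESeq2, 1 without a filter and 0 to 1 without single libraries, LOC563036 each time. Age (1) gave 4 by DESeq2 and 0 with whole counts only, a fit in which LOC100007655 was not tested. The age comparison gave 0 with the replicate number as a block, 0 without both libraries of small TMM factor and 0 to 2 without single libraries. The count of members whose NTG libraries did not overlap the lines (13) was 8 at the higher minimum and 1 with whole counts only. It was 13 to 21 without single libraries, the highest without NTG replicate 4. Over all tested genes non-overlap was counted only with all libraries, at 7.44%. DESeq2 called 650 genes in all for TMEM43-p.S358L minus TMEM43-WT, 438 for TMEM43-p.P111L minus TMEM43-WT, 431 for TMEM43-p.P111L minus TMEM43-p.S358L and 563 for age, against 282, 144, 182 and 169 by edgeR.

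Whether the replicate number pairs the libraries was not settled. Of 13 pairs with the same number 4 had deviations correlated above 0.1 (median r 0.063). Of 60 pairs with different numbers 11 did (median r 0.008). The number is also mixed with age. Of the named log2 fold changes under all alternatives 586 kept direction and side of the threshold, 19 lost and 13 gained the call, and 5 turned sign, none of them called. Except for the age difference of LOC100007655, all are the contrast with NTG that chose the region. The alternatives of a mean of at least 1 CPM and of a log2 fold change of at least 1 reuse the main fit. Their 25 entries each thus kept direction by construction, and no stability is read from these counts. wbp2nl (-0.07) became 0.0016 without NTG replicate 2 and 0.064 without NTG replicate 4, within -0.26 to 0.064 over single libraries left out. si:ch73-106l15.3 (0.17) became -0.13 with the replicate block, -0.29 at 18 to 21 months and -0.14 without NTG replicate 2, within -0.14 to 0.57 over single libraries left out. The cause of these changes was not tested.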
